A study of Mus musculus with 6 samples.

Results

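Inmt, Apod, Dpt and Clec3b are 4 genes, out of 54146 in the deposited expression table, that were chosen by their expression values in this comparison, as genes nearly lost in D2A1 spheroids treated with recombinant SLURP1 (rSLURP1). They were found by gene name, and each name matched 1 row. D2A1 is a mouse mammary tumor cell line, grown here as spheroids in Matrigel in medium with serum. RNAseq covered 3 libraries treated with 50 nM rSLURP1 and 3 with 50 nM recombinant GST (rGST), the control protein, and the methods place the harvest on day 5. SLURP1 is a secreted protein related to Ly6 and uPAR, and the comparison asks which genes differ with rSLURP1. All 6 libraries come from the same line, and nothing in the labels says whether the 3 libraries of a treatment were separate cultures, so errors and p-values measure only the spread between these libraries, which may be technical.

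The 4 genes encode unrelated proteins. Inmt encodes indolethylamine N-methyltransferase, a cytosolic enzyme that moves a methyl group from S-adenosylmethionine to tryptamine and other amines, and in mouse lung it is a familiar marker of fibroblasts. Apod encodes apolipoprotein D, a secreted lipocalin that carries arachidonic acid and other small hydrophobic molecules and rises in many cell types when they stop growing. Dpt encodes dermatopontin, a small matrix protein that binds decorin and helps collagen fibrils to assemble. Clec3b encodes tetranectin, a secreted C-type lectin that binds the kringle domains of plasminogen. Dpt and Clec3b are both much used as markers of fibroblasts of connective tissue.

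In the GENCODE M21 annotation of GRCm38 (mm10), the build of the deposited files, Inmt (ENSMUSG00000003477.5) lies on chromosome 6, 55170626 to 55175043, minus strand. Apod (ENSMUSG00000022548.14) lies on chromosome 16, 31296192 to 31314808, minus strand. Dpt (ENSMUSG00000026574.5) lies on chromosome 1, 164796644 to 164824266, plus strand, and Clec3b (ENSMUSG00000025784.5) on chromosome 9, 123150946 to 123157432, plus strand. The 4 genes therefore share no locus. RefSeq promoter sequences (GRCm38.p6) matched 3 of the 4, Inmt, Apod and Dpt. They are shown because these genes, on different chromosomes, were low together with rSLURP1. Each window is the 250 bases before the RefSeq start, and the last 53 bases for Inmt and 19 for Dpt, which GENCODE places inside the gene, are not printed. Capitals mark TATAAA, the core of a TATA box, and CANNTG, an E-box, searched on both strands, and no match overlapped another.
Inmt, chr6:55175044-55175240, minus strand: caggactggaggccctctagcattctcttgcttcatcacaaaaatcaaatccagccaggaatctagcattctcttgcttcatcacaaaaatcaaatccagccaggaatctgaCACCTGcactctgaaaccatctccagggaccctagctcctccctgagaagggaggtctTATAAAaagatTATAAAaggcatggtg
Apod, chr16:31314809-31315058, minus strand: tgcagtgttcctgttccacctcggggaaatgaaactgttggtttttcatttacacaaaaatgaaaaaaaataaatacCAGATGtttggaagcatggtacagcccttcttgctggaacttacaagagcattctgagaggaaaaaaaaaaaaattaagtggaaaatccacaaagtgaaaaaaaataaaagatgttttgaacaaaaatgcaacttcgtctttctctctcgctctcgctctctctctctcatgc
Dpt, chr1:164796413-164796643, plus strand: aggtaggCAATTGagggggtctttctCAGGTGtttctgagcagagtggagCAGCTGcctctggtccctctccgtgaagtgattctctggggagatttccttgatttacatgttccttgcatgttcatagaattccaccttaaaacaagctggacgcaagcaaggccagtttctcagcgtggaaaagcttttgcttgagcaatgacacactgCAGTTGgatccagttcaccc

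The Inmt window held TATAAA at 2 places, with first bases at -27 and -16 from the GENCODE start, and 12.4% of all 32851 RefSeq windows of this length held it. CANNTG occurred in all 3 windows, but also in 66.2% of all windows. The other motifs searched, also on both strands, matched in none of the 3 windows. They were the CCAAT box (CCAAT, in 33.8% of all windows), the GC box (GGGCGG, 32.7%), the AP-1 site (TGACTCA, 4.46%), the CACC box (CCCCACCC, 9.05%), the forkhead site (TGTTTAC, 3.17%) and a half-site of the glucocorticoid receptor element (AGAACA, 16.1%). The full element was not searched. The Inmt window held 0 CpG dinucleotides, the Apod window 4 and the Dpt window 3, against a median of 6. The GC content was 48.0%, 36.4% and 48.8%, against a median of 52.4%, so that all 3 lay below the median in both measures. A match describes only the letters in the window.

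Expression was deposited as TPM, a read share corrected for transcript length. Levels can therefore be compared between genes, but how deeply each library was read is unknown. In bulk libraries, fewer cells of a type and less RNA per cell cannot be told apart. Between 12390 and 12449 genes reached 1 TPM per library with rGST, and between 11906 and 11981 with rSLURP1. For all other genes named here, log2(TPM + 1) was compared in limma among the 12301 genes that reached 1 TPM in 3 or more libraries, and "called" means a difference of 2-fold or more with a Benjamini-Hochberg adjusted p-value no higher than 0.05. The added 1 makes differences of genes at low TPM look smaller. The median log2 difference over all tested genes was -0.33, and median-ratio scaling, which brings it to -0.0012, is named below where it ends a call. The 4 genes passed the filter, but Inmt, Dpt and Clec3b reached 1 TPM in their rGST libraries alone, and since their low values with rSLURP1 chose them, this comparison is described for them without a test. Among genes named below as called lower, Aqp1, Col1a1, Abcg1 and Acta2 also reached 1 TPM with rGST alone. They entered the test only through the group where they were high, and no p-value is given for them.

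Inmt, the methyltransferase, had 524.8, 496.9 and 479.7 TPM in rGST libraries 1, 2 and 3. In rSLURP1 libraries 1, 2 and 3 it had 0.14, 0 and 0.030 TPM. The groups were far apart, with every rGST library at 479.7 TPM or more and every rSLURP1 library at 0.14 or less. The means were 500.5 ± 22.8 TPM with rGST against 0.0567 ± 0.0737 with rSLURP1 (SD, 3 libraries each), so that 0.0113% of the control level was left. With rGST, Inmt ranked 252 from the highest of all genes in the table by mean TPM, and with rSLURP1 it ranked 16881. On the log2(TPM + 1) scale the difference was -8.89 (standard error 0.0721), the lowest of all 12301 tested genes.

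Apod, the lipocalin, had 434.6, 448.9 and 425.1 TPM in the rGST libraries and 1.0, 1.39 and 0.85 TPM in the rSLURP1 libraries, in the order of libraries 1 to 3. It was the only one of the 4 genes to keep a level near 1 TPM in each rSLURP1 library. Its means were 436.2 ± 11.9 TPM with rGST against 1.08 ± 0.279 with rSLURP1 (SD, 3 libraries each), and 0.248% of the control level was left. The lowest rGST library exceeded the highest rSLURP1 library 306-fold. The log2 difference of Apod was -7.72 (standard error 0.0945), the second lowest of all tested genes, and its rank among all genes by mean TPM went from 293 to 11900.

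Dpt, the decorin-binding matrix protein, started from a much lower level. It had 3.20, 4.73 and 3.55 TPM in the rGST libraries and 0.19, 0.040 and 0.14 TPM in the rSLURP1 libraries. The lowest rGST library was 16.8 times the highest rSLURP1 library. The means were 3.83 ± 0.802 and 0.123 ± 0.0764 TPM (SD, n = 3 each), which left 3.22% of the control level, and the log2 difference was -2.09 (standard error 0.168).

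Clec3b, which encodes tetranectin, had 1.86, 2.17 and 2.49 TPM in the rGST libraries, a mean of 2.17 ± 0.315 (SD, n = 3). It was listed at 0 in all 3 rSLURP1 libraries. No fold change can be given against values listed at 0, and at such a control level without a known depth, the zeros do not say how far the level fell. On the log2(TPM + 1) scale the difference was -1.66 (standard error 0.157), a value that the added 1 keeps small.

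**Figure D1:**
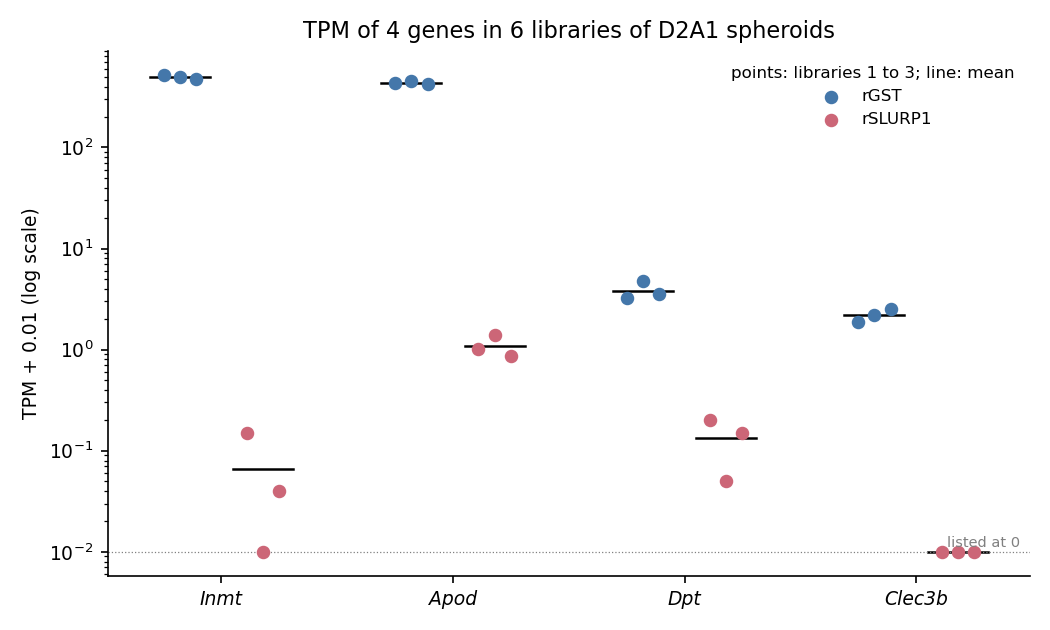
TPM + 0.01 on a log axis for Inmt, Apod, Dpt and Clec3b, with 1 point per library (rGST blue, rSLURP1 red, libraries 1 to 3 from left to right) and a line at the mean of each treatment. The rGST points of Inmt and Apod lie between 425.1 and 524.8 TPM and those of Dpt and Clec3b between 1.86 and 4.73, while no rSLURP1 point exceeds 1.39.

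In all 4 genes every rGST library lay above every rSLURP1 library. The choice of the genes fixes this, and 61.7% of all tested genes were separated in the same direction, against 9.75% in the opposite one. The summed TPM of the 4 genes was between 910.8 and 964.5 in the rGST libraries and between 1.02 and 1.43 in the rSLURP1 libraries. With rGST the order of levels was Inmt, Apod, Dpt, Clec3b, and no neighbours in this order overlapped in their libraries. The ratio of Inmt to Apod was 1.21, 1.11 and 1.13 in the rGST libraries. With rSLURP1 the order of these 2 genes was turned in every library, with ratios of 0.14, 0 and 0.0353, so that Apod lay above Inmt. These ratios rest on Inmt at 0.14 TPM or less without a known depth, and on values that chose the genes. Their sizes therefore say little.

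By mean TPM with rGST, Inmt and Apod ranked 252 and 293 from the highest of all genes, whereas Dpt and Clec3b ranked 10655 and 11455, so that the low level held for Dpt and Clec3b.

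Variation between control libraries was not used to choose the genes. The coefficient of variation over the 3 rGST libraries was 4.55% for Inmt, 2.74% for Apod, 20.9% for Dpt and 14.5% for Clec3b. Among the 498 or 499 genes with the most similar rGST level, the median was 2.85% around Inmt, 2.88% around Apod, 13.9% around Dpt and 21.7% around Clec3b. The share of those genes that varied less was 75.3% for Inmt, 47.4% for Apod, 72.5% for Dpt and 31.1% for Clec3b, so that none of the 4 was at the edge of its level class. The highest rGST library was library 1 for Inmt, library 2 for Apod and Dpt, and library 3 for Clec3b.

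Near loss of expression was rare at each control level examined. Of 12480 genes with a mean of at least 1 TPM with rGST, 119 (0.954%) kept 1% or less of that mean with rSLURP1, and 226 (1.81%) kept 10% or less. Of the 1499 genes with at least 100 TPM with rGST, 6 (0.400%) kept 1% or less. These were Inmt, Apod, Dcn, Lum, Itgbl1 and RP24-217J7.2, a list named after its values were seen. At 400 TPM or more, 3 of 322 genes (0.932%) did so, and they were Inmt, Apod and Dcn, the gene of decorin. Inmt and Apod were chosen for this loss, so their part of these counts was fixed by the choice.

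The genes whose values were most like those of each member were found by Euclidean distance of log2(TPM + 1) over the 6 libraries, among 13568 genes reaching 1 TPM in any library. Pearson correlations over the same 6 values were between 0.983 and 0.999 and are set mainly by the 2 treatments. Inmt and Apod were each other's nearest gene, at a distance of 1.75. Next came Lum, which encodes the small proteoglycan lumican, with 170.5, 194.6 and 165.1 TPM with rGST and 0.58, 1.09 and 1.05 with rSLURP1. It lay at 3.02 from Inmt and 2.30 from Apod. The third place went to the processed pseudogene RP24-217J7.2 for Inmt (distance 3.32) and to Omd, which encodes the proteoglycan osteomodulin, for Apod (distance 2.5). Omd had 163.6, 173.5 and 163.4 TPM with rGST and 1.28, 2.03 and 1.79 TPM with rSLURP1. Apart from the pseudogene, the nearest genes of the abundant pair were matrix proteoglycan genes at a somewhat lower level. The distance uses the values that chose the pair, so that only abundant genes nearly lost with rSLURP1 could come near. Of all genes with at least 100 TPM with rGST, 12 kept 10% or less with rSLURP1.

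Dpt had Ifi47, an interferon-induced GTPase, as its nearest gene (distance 0.471), with 4.40, 3.92 and 3.59 TPM with rGST and 0.14, 0.19 and 0.15 with rSLURP1. It was followed by the pseudogene RP23-360N18.2 (0.527) and Cytip (0.553), a regulator of cytohesins. Clec3b was nearest to the pseudogene RP24-538J1.2 (0.385), Sectm1a (0.389) and Plxdc1 (0.405). At these low levels many genes lie close together, and the distances again use the values that chose Dpt and Clec3b, so that they say little. Reads of the 3 pseudogenes can be shared with their parent genes, and their values are uncertain.

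**Figure D2:**
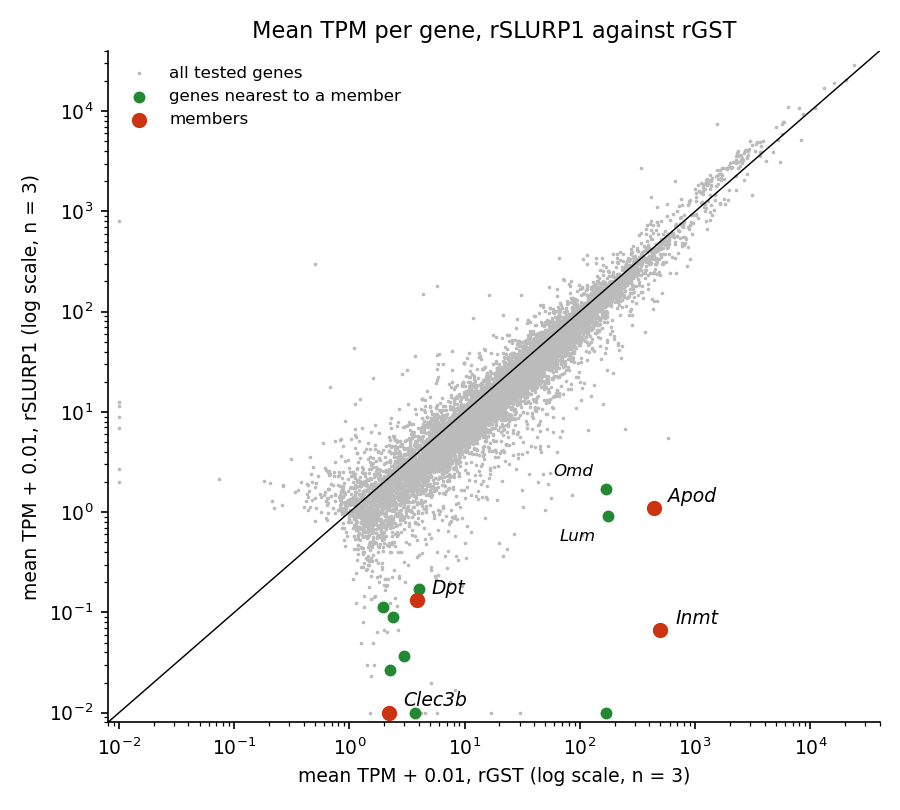
Mean TPM + 0.01 of each tested gene with rSLURP1 against rGST, both axes logarithmic, n = 3 libraries each. Members are red, the genes most like them are green, all others are gray, and the line marks equal levels. Inmt and Apod lie at 500.5 and 436.2 TPM with rGST, far below the line, with Lum and Omd beside them, whereas Dpt and Clec3b sit at the low end of expression.

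The genomic surroundings were examined through the 2 nearest protein-coding genes on each side of every member, a choice that does not depend on expression. No protein-coding gene overlapped a member. Of the 16 neighbors, 11 were tested, and 3 were called lower and 0 higher, against 7.06% of all tested genes called lower and 1.15% called higher. With a TPM of 1 required in all 6 libraries, 2 neighbors were called lower, beside 665 of all 11199 genes then tested. The median log2 difference of the 11 was -0.54, compared with -0.33 for all tested genes.

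Around Inmt, the neighbors called lower were both on the side of higher coordinates. Aqp1, which encodes the water channel aquaporin 1 and lies 161 kb from Inmt, had 25.6, 24.4 and 19.9 TPM with rGST and 0.48, 0.26 and 0.51 with rSLURP1. It fell by 4.10 on the log2 scale (standard error 0.133), and it passed the filter only through its rGST libraries. Mindy4, a deubiquitinase gene listed in the table as Fam188b, lies between Inmt and Aqp1, 28.3 kb from Inmt. It fell by 2.13 on the log2 scale, from 21.5 ± 0.675 TPM to 4.16 ± 0.746 (SD, n = 3 each, adjusted p = 5.42e-06 in limma). On the other side, Gars, a glycyl-tRNA synthetase 91.1 kb away, was not called and had 143.4 ± 2.52 TPM with rGST and 204.3 ± 12.2 with rSLURP1. Crhr2, the nearest gene on that side, had 0.030 TPM or less in all 6 libraries.

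Around Apod, Acap2, a regulator of Arf GTPases 94.9 kb away, fell from 341.6 ± 12.9 to 158.6 ± 9.09 TPM (SD, n = 3 each), a log2 difference of -1.10 (adjusted p = 3.42e-06 in limma). With median-ratio scaling its log2 difference was -0.75, less than 2-fold. Ppp1r2, which lies 20.9 kb away and encodes an inhibitor of protein phosphatase 1, had a log2 difference of -0.88 and was not called. Dlg1 on the other side had -0.11, which turned to 0.23 with median-ratio scaling, and Bdh1 was at 0.060 TPM or less. No tested neighbor of Dpt or Clec3b was called. Nme7 and Atp1b1 near Dpt had log2 differences of -0.58 and -0.41, and Exosc7, Zdhhc3 and Tmem158 near Clec3b had -0.54, -0.27 and -0.12, of which the last 2 turned to 0.070 and 0.20 with median-ratio scaling.

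Genes that work with each member were taken from lists. Other enzymes of small-molecule methylation and the methyl cycle, the company of Inmt, numbered 22, of which 11 were tested and 0 were called in either direction. With 7.06% of all tested genes called lower and 1.15% higher, a count of 0 among so few genes is near the background. Their median log2 difference was -0.34, against -0.33 for all tested genes, and with quantile normalization the list's median was 0.04. Mat2a, which makes S-adenosylmethionine, had 172.5 ± 16.2 TPM with rGST and 133.2 ± 13.3 with rSLURP1 (log2 difference -0.37). Ahcyl1, related to the hydrolase that clears the spent methyl donor, had a log2 difference of -0.66. Nnmt, the closest relative of Inmt in this list, was at 0.090 TPM or less in all 6 libraries, and Ddc, which makes tryptamine, was listed at 0 throughout.

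Lipocalins, apolipoproteins and their receptors, listed for Apod, numbered 19. Of the 11 tested, 5 were called lower and 0 higher, against 7.06% and 1.15% of all tested genes. With median-ratio scaling 3 were called lower, beside 463 of all 12301 tested genes. The median log2 difference of the list was -0.79, against -0.33 for all tested genes. Ptgds, a lipocalin that also makes prostaglandin D, fell from 58.4 ± 3.40 to 6.22 ± 1.37 TPM (SD, n = 3 each), a log2 difference of -3.05 (adjusted p = 2.17e-06 in limma). Abca1, the cholesterol exporter, fell by 2.17 on the log2 scale (adjusted p = 2.30e-07 in limma), and Apoc1, a small exchangeable apolipoprotein, fell by 2.13 (adjusted p = 1.20e-04 in limma). Lrp1, a large endocytic receptor, fell by 1.12 as deposited, and Abcg1, another cholesterol exporter, by 1.07, but neither reached 2-fold with median-ratio scaling (-0.76 and -0.96), and Abcg1 was not called without rGST library 3 (-0.99).

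Basigin (Bsg), a receptor described for apolipoprotein D, had 803.3, 827.1 and 787.1 TPM with rGST and 452.4, 480.5 and 462.4 TPM with rSLURP1. The groups did not overlap, but 61.7% of all tested genes were separated in the same direction. The log2 difference of -0.79 did not reach 2-fold, and with median-ratio scaling it was -0.44. Lcn2, the most abundant lipocalin here and named after its values were seen, went the other way without being called, with 1073 ± 155 TPM with rGST against 1581 ± 69.2 with rSLURP1 (SD, 3 libraries each, log2 difference 0.57). The lipocalins measured did therefore not share 1 direction.

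Partners of dermatopontin and other fibril genes numbered 18, with 12 tested, 8 called lower and 0 higher, against a background of 7.06% and 1.15%. Dcn, Col1a1, Col1a2, Col3a1 and Col14a1 are also in the list of fibroblast markers below, so the counts of these lists are not separate. This list, too, was drawn up with results of these data known. With median-ratio scaling 6 were called lower, beside 463 of all 12301 tested genes. Tgfb3 and Col5a1 were then no longer called, with log2 differences of -0.94 and -0.75. The median log2 difference of the tested genes in the list was -1.28, against -0.33 for all tested genes. Decorin (Dcn), which dermatopontin binds, fell by 6.49 on the log2 scale (adjusted p = 1.37e-08 in limma) and, unlike Dpt, was an abundant transcript with rGST. Col1a1, the alpha 1 chain of type I collagen, fell from 8.78 ± 1.15 to 0.327 ± 0.0833 TPM (SD, n = 3 each), and its log2 difference was -2.88. Bgn, the proteoglycan biglycan, and Col12a1, a fibril-associated collagen, fell by 2.34 and 1.87 (adjusted p = 3.25e-06 and 1.85e-04 in limma). With a TPM of 1 required in all 6 libraries, 4 of the list were called lower, beside 665 of all 11199 genes then tested. Fn1 and Itgb1 were not called, at -0.81 and -0.48, although Fn1 was called lower with quantile normalization (-1.06), and Tgfb1 was at 0.03.

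The plasminogen system and relatives of tetranectin numbered 16, with 8 tested, 1 called lower and 2 higher, beside 7.06% and 1.15% of all tested genes. The median log2 difference of the list was -0.39, against -0.33 for all tested genes. Plat, the tissue plasminogen activator, fell from 42.5 ± 1.32 to 5.58 ± 1.38 TPM (SD, n = 3 each), a log2 difference of -2.75 (adjusted p = 5.47e-06 in limma). Plaur, the urokinase receptor, rose by 1.13 on the log2 scale (adjusted p = 1.19e-04 in limma). Plau, the urokinase, had 1.31, 2.12 and 1.16 TPM with rGST and 0.58, 0.94 and 0.64 TPM with rSLURP1 and was not called. Plg itself was at 0.030 TPM or less in all libraries, and the lectin relatives Clec3a and Clec14a were listed at 0.

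Glucocorticoids are known inducers of Apod in some cells, and 13 responsive genes were listed. Of the 12 tested, 1 was called lower and 0 higher, near the background of 7.06% and 1.15% of all tested genes, and the median log2 difference was -0.36, against -0.33 for all tested genes. The gene called was Errfi1, a feedback inhibitor of the EGF receptor, which fell from 227.2 ± 9.21 to 34.7 ± 0.891 TPM (SD, n = 3 each, log2 difference -2.68, adjusted p = 7.14e-08 in limma). Fkbp5 and Tsc22d3, common reporters of the glucocorticoid receptor, were at -0.24 and 0.21, of which the first turned to 0.09 with median-ratio scaling.

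**Figure D3:**
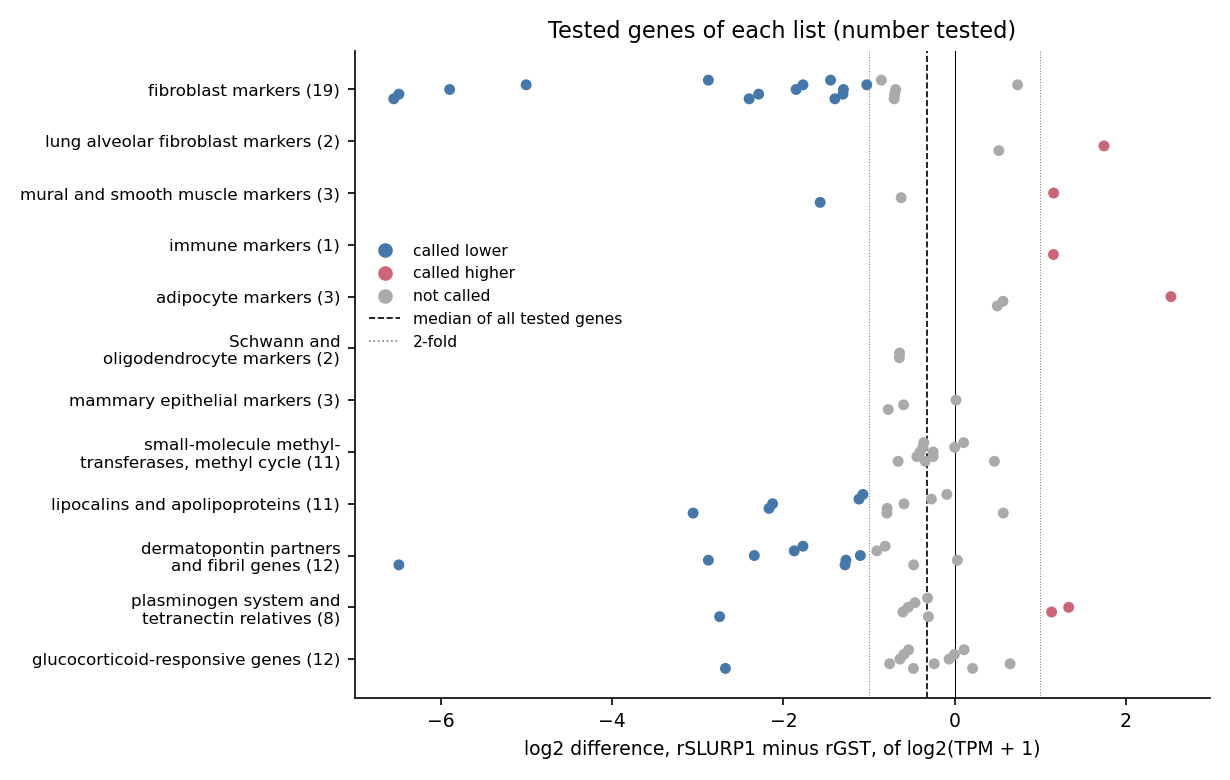
Log2 difference (rSLURP1 minus rGST, of log2(TPM + 1)) of each tested gene in 12 of the 13 lists, with the number tested in parentheses; no endothelial marker was tested. Blue genes were called lower, red ones higher and gray ones not called in limma, the dashed line is the median of all tested genes at -0.33 and the dotted lines mark a 2-fold change. Fibroblast markers and dermatopontin partners reach farthest to the left, and the methyl cycle genes gather around the median.

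Because Inmt, Dpt and Clec3b are used as markers of fibroblasts, other markers of that lineage were read as a list of 35. Of the 19 tested, 14 were called lower and 0 higher, against 7.06% and 1.15% of all tested genes. With median-ratio scaling 12 were called lower and 1 higher (Igfbp6, which was also called higher with quantile normalization). That scaling called 463 lower and 306 higher of all 12301 tested genes. With a TPM of 1 required in all 6 libraries, 9 were called lower, beside 665 of all 11199 genes then tested. Lum, Dcn and Mfap5 had the largest log2 differences, -6.55, -6.49 and -5.90, and Ogn, another small proteoglycan, fell from 244.6 ± 17.8 to 6.69 ± 1.10 TPM (SD, n = 3 each, adjusted p = 1.43e-07 in limma). The list was drawn up with results of these data known, so that its count is no independent evidence of direction. Summed over the list, TPM was between 2794 and 2993 in the rGST libraries and between 641.8 and 712.9 in the rSLURP1 libraries.

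The list did not disappear as Inmt and Apod did. Pdgfra, the receptor that defines many fibroblasts and was named after its values were seen, fell from 196.8 ± 7.15 to 53.9 ± 3.32 TPM (SD, n = 3 each), a log2 difference of -1.85 (adjusted p = 4.36e-07 in limma). Pi16 was not called, at -0.69. Other defining markers were already below 1 TPM in all 6 libraries, among them Col1a2, Col3a1, Thy1, Cd34 and Ly6a, and Dpp4, Sfrp1 and Cxcl12 were listed at 0. Whether cells other than tumor cells had a part in the values of the 4 genes was not tested.

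Of 9 markers of lung alveolar fibroblasts, in which Inmt is known, Tcf21, Wnt2, Ces1d and Scn7a were listed at 0 and 2 were tested. Plin2, a lipid droplet protein that many cells make, was the 1 called, and it rose from 412.4 ± 46.5 to 1381 ± 125 TPM (SD, n = 3 each), a log2 difference of 1.74 (adjusted p = 5.29e-06 in limma). The summed TPM of this list, 374.0 to 465.7 with rGST and 1286 to 1527 with rSLURP1, was nearly all Plin2.

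Markers of other cell types were low. The 8 endothelial markers summed to 0.22 to 0.39 TPM with rGST and 0.18 to 1.33 with rSLURP1, with Kdr, Emcn and Cldn5 at 0, and their highest genes were Vwf and Pecam1. The 10 immune markers summed to 3.61 to 4.2 TPM with rGST and 8.12 to 10.7 with rSLURP1. Nearly all of that was Cd68, a lysosomal glycoprotein, which rose by 1.14 on the log2 scale (adjusted p = 1.90e-04 in limma), whereas Adgre1, Cd3e, Ncr1 and Itgam were listed at 0. The 9 mural and smooth muscle markers summed to 9.23 to 12.9 TPM with rGST and 7.23 to 9.51 with rSLURP1. In that list Acta2, smooth muscle actin, fell from 3.70 ± 0.931 to 0.573 ± 0.248 TPM (SD, n = 3 each). Mcam, an adhesion molecule, rose from 1.39 ± 0.450 to 4.29 ± 0.686 TPM (SD, n = 3 each, adjusted p = 8.89e-04 in limma).

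The 8 adipocyte markers summed to 10.1 to 14.7 TPM with rGST and 45.9 to 51.8 with rSLURP1. Fabp4, a fatty acid binding protein, accounted for most of this with rSLURP1 and rose from 5.74 ± 1.58 to 37.2 ± 1.63 TPM (SD, n = 3 each, log2 difference 2.52, adjusted p = 9.73e-06 in limma), and Lep, Cebpa and Lpl were listed at 0. Apod is also made by Schwann cells and oligodendrocytes. The 7 markers of these cells summed to 21.1 to 23.1 TPM with rGST and 13.3 to 15.6 with rSLURP1, mostly Cnp, a phosphodiesterase that other cells share, which was not called (log2 difference -0.65). Sox10, the lineage factor, was listed at 0.

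The label of the cells, mouse mammary tumor cell, was set against 15 mammary epithelial markers. Krt18, a simple epithelial keratin, was abundant with both treatments, with 195.6 ± 4.13 TPM with rGST against 197.7 ± 1.68 with rSLURP1 (SD, 3 libraries each). Its keratin partner Krt8 was at 1.66 TPM or less, and Epcam, Krt5, Krt14, Cldn3, Cldn7, Esrp1 and Elf5 were listed at 0 in all 6 libraries. Trp63, a basal cell factor, had 4.01 ± 0.345 and 1.93 ± 0.369 TPM (SD, n = 3 each) and was not called. Most defining epithelial markers were thus absent or nearly so with both treatments, in the same control libraries in which Inmt and Apod were abundant.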

How the data were processed

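RNAseq of D2A1 spheroids comprised 6 libraries, matched to samples by library name and grouped by title (n = 3 per treatment). Per the labels and methods, adapters were removed with Cutadapt, reads were mapped to mm10 by STAR 2.5.2b in two-pass mode, and RSEM estimated the TPM that the authors deposited, 1 column for each library. The labels give a TruSeq kit for these libraries, whereas the methods give Smart-seq2. Because TPM carries no depth, no counting error is given.

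Differences were fitted with limma 3.58.1 in R 4.3.3 (eBayes with trend, no block) on log2(TPM + 1), after scripts had been tested on simulated data. Exact permutation of 3 against 3 libraries could reach no p-value under 0.1 (two-sided). Gene identifiers without versions matched GENCODE M21 for 54079 of 54146 rows.

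The 4 genes and the 13 lists were chosen with earlier results of these data known. Named were the 3 nearest genes of each member, 2 protein-coding neighbors per side, and from each list up to 4 called genes with the largest difference, or up to 2 with the highest TPM where none was called, besides Bsg, Dcn, Plau, Plat and Nnmt. Other genes were named after their values were seen, and 2 genes that this rule names are not reported here. Alternatives covered the pseudocount (0.1), the filter (none, or all 6 libraries), scaling (median-ratio, quantile), the trend, blocking by replicate number, and omission of each library with the tested genes held fixed.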

Additional observations from a re-analysis of the deposited data

How the results depend on the processing

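The log2 difference stayed negative for all 4 genes in every alternative that gave a value. The choice of the genes for low values with rSLURP1 fixes this sign, so only the sizes are informative. A TPM of 1 in all 6 libraries removes the 4 genes and gives none. With a pseudocount of 0.1 the differences were -11.74 for Inmt, -8.56 for Apod, -4.18 for Dpt and -4.50 for Clec3b. They were -8.70, -7.45 and -1.54 for Inmt, Apod and Clec3b with median-ratio scaling, and -8.78, -7.49, -1.77 and -1.49 for Inmt, Apod, Dpt and Clec3b with quantile normalization. Leaving out 1 library gave -8.95 to -8.85 for Inmt, -7.83 to -7.64 for Apod, -2.19 to -1.96 for Dpt and -1.73 to -1.59 for Clec3b.

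Of all tested genes, 869 were called lower and 142 higher, so that 86.0% of calls were lower. Median-ratio scaling gave 463 lower and 306 higher (60.2% lower) and quantile normalization 416 and 314 (57.0% lower), and they moved the median of all genes from -0.33 to -0.0012 and 0.020. The filter in all 6 libraries gave 94 higher, among fewer genes tested. Of 84 tested genes in the 13 lists, 27 were called lower and 6 higher, beside 7.06% and 1.15% of all tested genes. The lists were drawn up with results of these data known, so these counts are no independent evidence of direction. Over the alternatives the list counts ranged from 18 to 30 lower and from 5 to 7 higher. Leaving out 1 library gave 848 to 936 lower and 131 to 161 higher among all tested genes, and 26 to 27 lower and 6 higher in the lists, where Abcg1 (without rGST library 3) and Fbln1 (without rGST library 2) were the genes no longer called. Same-numbered libraries deviated from their group means with correlations between -0.061 and -0.034 across genes, so no shared effect of the number was visible. Whether same-numbered libraries were set up together cannot be told from these values. Blocking by replicate number gave 872 lower and 141 higher, and 27 and 6 in the lists. Read depth is unknown, so no counting error could be set beside the low TPM of Dpt and Clec3b.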
